A study of Mus musculus with 56 samples.

Results

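Aldosterone output from the adrenal gland is set by the membrane voltage and calcium level of zona glomerulosa cells, and 7 channel and pump genes with known roles in that control were followed here by name. They are the potassium channel genes Kcnk3, Kcnk9 and Kcnj5, the calcium channel genes Cacna1h and Cacna1d, the chloride channel gene Clcn2 and the calcium pump gene Atp2b3. Each symbol was matched to its Ensembl identifier, which gave 7 genes of 55487 identifiers in the female and male tables and of 55414 in the surgery table. All 7 were present in the 3 tables and passed the low-count filter in every fit. The selection is by name and uses no measured value, but it was made with earlier results of these data known.

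Bulk RNA of whole adrenals from C57BL/6J mice was sequenced with directional poly(A) libraries, giving 56 samples in 14 groups of 4 animals. Conditional knockout (cKO) animals carried SF1-Cre with Znrf3 Fx/Fx, and their littermate controls were SF1-Cre negative. SF1-Cre acts in steroidogenic cells, so medulla and other cells of the gland are not its direct targets. Females were 6, 9 or 12 weeks old and males 4, 6 or 9 weeks old, with a cKO and a control group at each age. In a further series, cKO males underwent castration or a sham operation at week 4 and were examined at 9 weeks. Both of those groups are cKO, there is no operated control without the deletion, and their reporter alleles were mixed (eYFP, mTmG or none). The series design text asks what accompanies the switch of the cKO gland from enlargement to regression.

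As background, zona glomerulosa cells are held at a very negative voltage by potassium leak channels. Angiotensin II and extracellular potassium depolarise them, voltage-gated calcium channels then open, and the calcium signal raises aldosterone synthase (Cyp11b2). Germline or somatic variants in the human counterparts of several of the 7 genes are a known cause of excess aldosterone. Kcnk3 and Kcnk9 encode acid-sensitive tandem-pore leak channels. Kcnj5 encodes an inward rectifier that is prominent in the human gland. Cacna1h encodes a T-type and Cacna1d an L-type calcium channel. Clcn2 encodes a chloride channel whose opening depolarises glomerulosa cells, and Atp2b3 a plasma membrane pump that exports calcium.

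The leak channel pair Kcnk3 and Kcnk9, which behaved differently below, is shown by sequence over 1 stretch. Identity over the whole coding sequences was not computed. The lines give 90 coding bases that include the potassium filter motif of the first pore loop, from the GENCODE M21 transcripts of GRCm38, 5′ to 3′ on the coding strand. Capitals mark the bases that differ between the 2 genes: 18 of 90, or 80.0% identical. Each stretch crosses the junction of exons 1 and 2, so its genomic span includes an intron. The span is chr5:30588560-30621940 (+ strand) for Kcnk3 and chr15:72512995-72546036 (- strand) for Kcnk9.
Kcnk3: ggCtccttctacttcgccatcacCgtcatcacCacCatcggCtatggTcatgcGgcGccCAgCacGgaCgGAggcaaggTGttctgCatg
Kcnk9: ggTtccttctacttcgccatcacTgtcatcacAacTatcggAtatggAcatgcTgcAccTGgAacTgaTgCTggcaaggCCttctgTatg
Over all their transcripts the longest run that the 2 genes share without a mismatch was 20 bases. Slightly longer runs joined Kcnk3 with Kcnk15 (23 bases) and Kcnk9 with Kcnk10 (21 bases). The longest run shared with any close relative was 56 bases for Atp2b3 (with Atp2b2), 50 for Cacna1h (with Cacna1i), 43 for Cacna1d (with Cacna1c), 34 for Kcnj5 (with Kcnj10) and 19 for Clcn2 (with Clcn1). The handling of reads that match several genes was not given in the sources used here.

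On GRCm38 the genes lie on 7 chromosomes. Kcnk3 (ENSMUSG00000049265) is at chr5:30588170-30625271 on the + strand and Kcnk9 (ENSMUSG00000036760) at chr15:72501089-72546340 on the - strand. Kcnj5 (ENSMUSG00000032034) is at chr9:32314707-32344350 (- strand) and Cacna1h (ENSMUSG00000024112) at chr17:25374285-25433783 (- strand). Cacna1d (ENSMUSG00000015968) is at chr14:30039939-30491455 (- strand), Clcn2 (ENSMUSG00000022843) at chr16:20702964-20717746 (- strand) and Atp2b3 (ENSMUSG00000031376) at chrX:73503086-73571005 (+ strand). The spans of Kcnk3, Cacna1h, Cacna1d and Clcn2, introns included, overlap those of other genes by up to 11921 bases (Cacna1d with Dcp1a). All of these partners lie on the opposite strand except the pseudogene Gm18072 in Cacna1d. Whether counting used strand was not given in the sources used here, so some reads of such partners may be counted with these genes.

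Total counts ran from 35.7M to 51.6M per library in females, 12.4M to 35.5M in males and 25.1M to 42.4M in the surgery series. Levels below are CPM, the count of a gene relative to its library's total, scaled by TMM factors, and each table was normalised separately, so levels are compared within a table. Znrf3, counted over the whole gene, had group means of 28.9 to 36.6 CPM in controls and 40.4 to 76.7 CPM in cKO glands. That count cannot show the deleted part, so it does not check the deletion, and labels are used as given. Markers of zona glomerulosa, zona fasciculata and medulla were detected in every group, as the tissue label requires. The labels give all 4 sham animals the same replicate number, so they are numbered 1 to 4 here in accession order, as names only. Sham replicate 1 (library number 10) stood apart: it differed from the other 3 by 279 to 324 chi-square units per degree of freedom over genes, against 25 to 39.3 among those 3 and at most 90 in the other groups. Male library numbers above 24 were held by 3 of 4 controls and 0 of 4 cKO animals at 4 weeks, by 4 and 0 at 6 weeks and by 2 and 2 at 9 weeks. At 6 weeks in males, genotype and number range therefore cannot be told apart within the age. A covariate for the range takes its effect from the 4- and 9-week animals. Its 6-week values below therefore cannot check the change at 6 weeks.

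Levels of different genes were compared per kilobase of exon. In female controls at 6 weeks Kcnk3 had the highest median of the 7, at 735 CPM per kilobase (range 610 to 821). Clcn2 (37.7, 35.5 to 42.4) and Cacna1h (37.0, 27.7 to 39.7) followed, with overlapping ranges. Kcnk9 (25.9, 23.6 to 27) and Atp2b3 (23.9, 22.4 to 28.2) overlapped each other as well. Cacna1d was at 1.39 (1.35 to 1.79) and Kcnj5 lowest at 0.233 (0.194 to 0.299), each apart from its neighbours. Both ends of this order were the same in all 6 control groups. In male controls at 6 weeks, where Cacna1h (56.7) and Kcnk9 (41.9) overlapped, both were above Clcn2 (22.7) and Atp2b3 (18.3). Kcnk9 and Cacna1d have long transcripts (12300 and 12621 exonic bases), so their values per kilobase depend on how much of that length is used in the gland.

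A gene is called changed where edgeR's quasi-likelihood test gave a Benjamini-Hochberg adjusted p under 0.05 over all genes of the table. Changes are log2 fold changes, cKO minus control, with an approximate standard error (SE), and n is 4 animals per group. In females 5 of the 7 genes were called at 6 weeks, 6 at 9 weeks and 4 at 12 weeks, where 33.4%, 34.6% and 25.1% of all genes tested were called. In males the counts were 2 at 4 weeks, 3 at 6 weeks and 4 at 9 weeks, beside 19.2%, 20.1% and 24.1% of all genes. Of the called genes, 5, 5 and 3 were lower in females (19.1%, 20% and 16% of all genes) and 1 was higher at 9 and at 12 weeks (14.6% and 9.11%). All called genes were lower in males, where 12.9%, 11.9% and 13.6% of all genes fell and 6.29%, 8.19% and 10.4% rose. Kcnk9 and Cacna1d fell in all 6 comparisons of cKO with control, Atp2b3 in 4, Cacna1h and Kcnk3 in 3, and Kcnj5 in none. The median change of the 7 genes was -0.73 in females at 6 weeks, beside 0.01 over all genes tested.

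**Figure D1:**
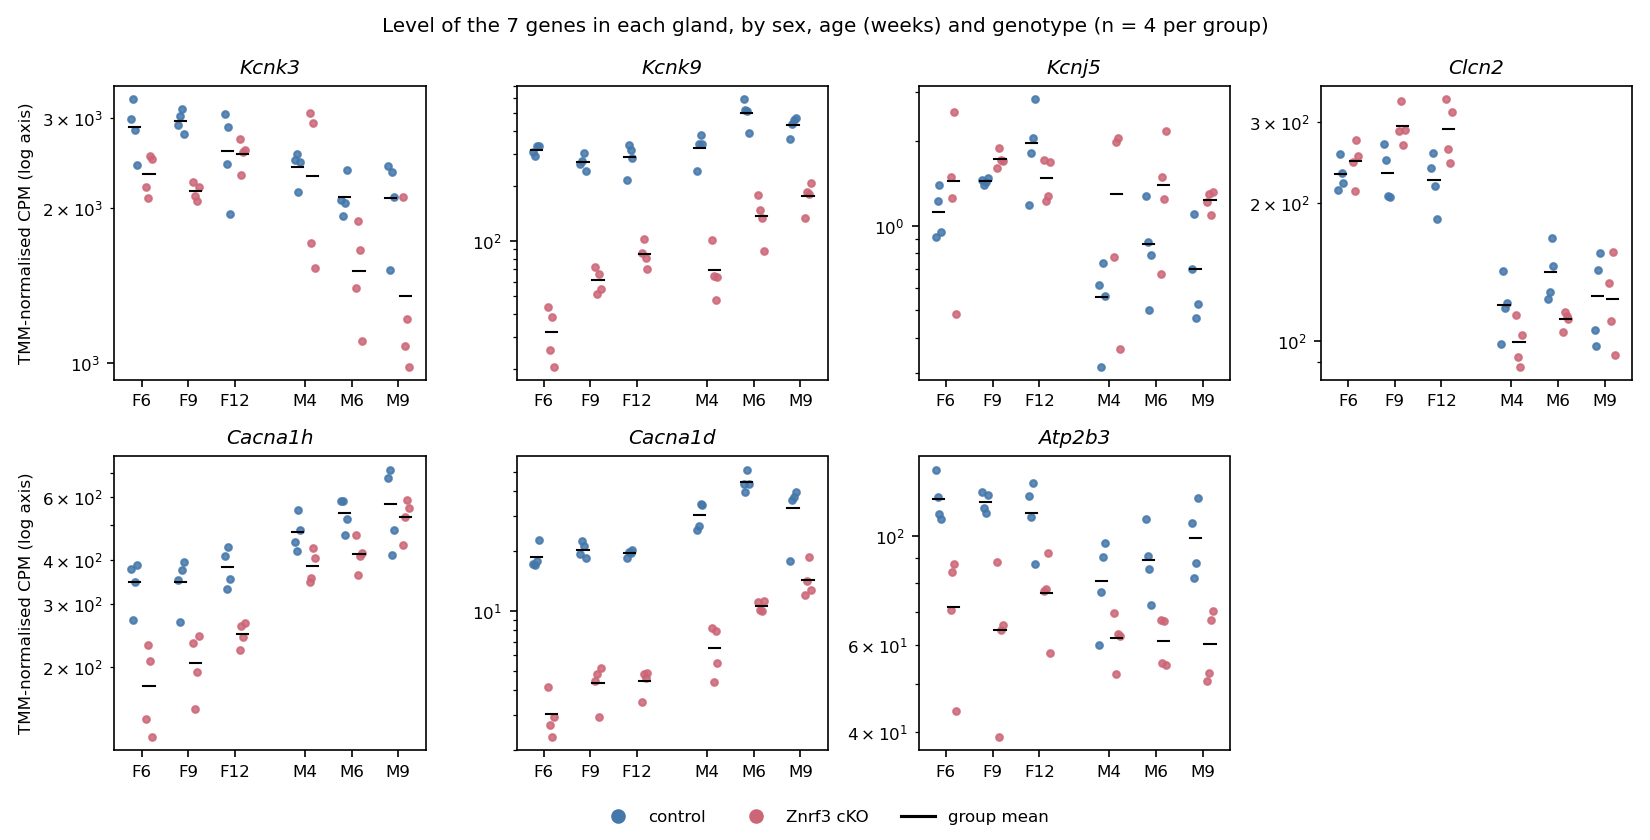
TMM-normalised CPM (log axis) of the 7 genes in each gland, by sex (F, M), age in weeks and genotype, with 4 animals per group; points are animals and bars are group means. Kcnk9 in all 6 comparisons and Cacna1d in 5 of 6 have every cKO animal below every control, while Clcn2 and Kcnj5 overlap in most.

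Kcnk9, the leak channel gene more restricted to glomerulosa cells in rodents, had the largest fall of the 7 in females at 6 weeks and after castration, while Cacna1d fell more in females at 9 and 12 weeks. Female controls at 6 weeks held 307, 291, 329 and 332 CPM, and the cKO glands 43.3, 25.2, 38.5 and 20.6 CPM. At 9 weeks the controls held 264, 274, 301 and 241 CPM against 72.3, 51.2, 66.3 and 54.3 CPM. At 12 weeks they held 216, 334, 315 and 284 CPM against 86.3, 103, 81.1 and 70.5 CPM. Every cKO gland was thus below every control, and cKO levels were higher in the older groups while the controls overlapped between ages. The log2 changes were -3.30 ± 0.19, -2.15 ± 0.18 and -1.75 ± 0.18 (SE), with edgeR adjusted p of 7.73e-11, 1.35e-08 and 2e-07.

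In males, Kcnk9 in controls was at 241, 336, 378 and 337 CPM at 4 weeks, 593, 521, 510 and 387 CPM at 6 weeks and 358, 433, 460 and 470 CPM at 9 weeks. The cKO glands held 101, 63.9, 47.4 and 63.7 CPM at 4 weeks, 178, 147, 134 and 88.4 CPM at 6 weeks and 134, 186, 180 and 207 CPM at 9 weeks. Again no cKO animal reached a control of its age. The log2 changes were -2.22 ± 0.22, -1.88 ± 0.21 and -1.29 ± 0.21 (edgeR adjusted p = 9.01e-08, 7.04e-07 and 9.76e-05). With a covariate for the library number range they were -1.96, -1.55 and -1.29 and stayed called, although at 6 weeks the covariate rests on the other ages. At 9 weeks with library numbers up to 24 only, 2 animals per group, Kcnk9 was at -1.31 with an adjusted p of 0.0512.

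Over the 3 ages, 1 of the 7 genes was called in cKO females (6.71% of all genes tested) and 4 in cKO males (36.1%). The test asks whether all 3 ages are equal, so its p belongs to no single pair of ages. Differences between ages, here and below, are given beside it as sizes only. In controls edgeR called 0 in females (0.0375%) and 0 in males (2.01%), and so did DESeq2. At an unadjusted p of 0.05, 1 gene in females (Kcnj5) and 2 in males (Kcnk9 and Cacna1d) would pass. The share of all genes under an unadjusted p of 0.05 was not computed, here or below, so these counts cannot be set against it. Among cKO females Kcnk9 changed over the 3 ages (edgeR adjusted p = 0.000852, 12 minus 6 weeks 1.42 on the log2 scale), and so it did among cKO males (adjusted p = 0.000175, 9 minus 4 weeks 1.35). Controls were not called in females (adjusted p = 0.923, -0.13) or males (adjusted p = 0.191, 0.41). Only Kcnk9 of the 7 had a genotype difference called to change over the 3 ages in females. Its edgeR adjusted p was 0.0211, where 0.139% of all genes were called. The difference was smaller at 12 than at 6 weeks by 1.55 on the log2 scale. That call was lost without 1 of 3 animals of the 6-week groups: cKO replicate 2 (adjusted p = 0.0581), control replicate 3 (0.0578) or control replicate 4 (0.055). In males edgeR's same test gave an adjusted p of 0.142 (1.66% of all genes called), with 0.94 from 4 to 9 weeks. There edgeR called 0 of the 7 genes, with 2 (Kcnk9 and Cacna1d) under an unadjusted p of 0.05, and DESeq2 called 1, Cacna1d (adjusted p = 0.0248).

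**Figure D2:**
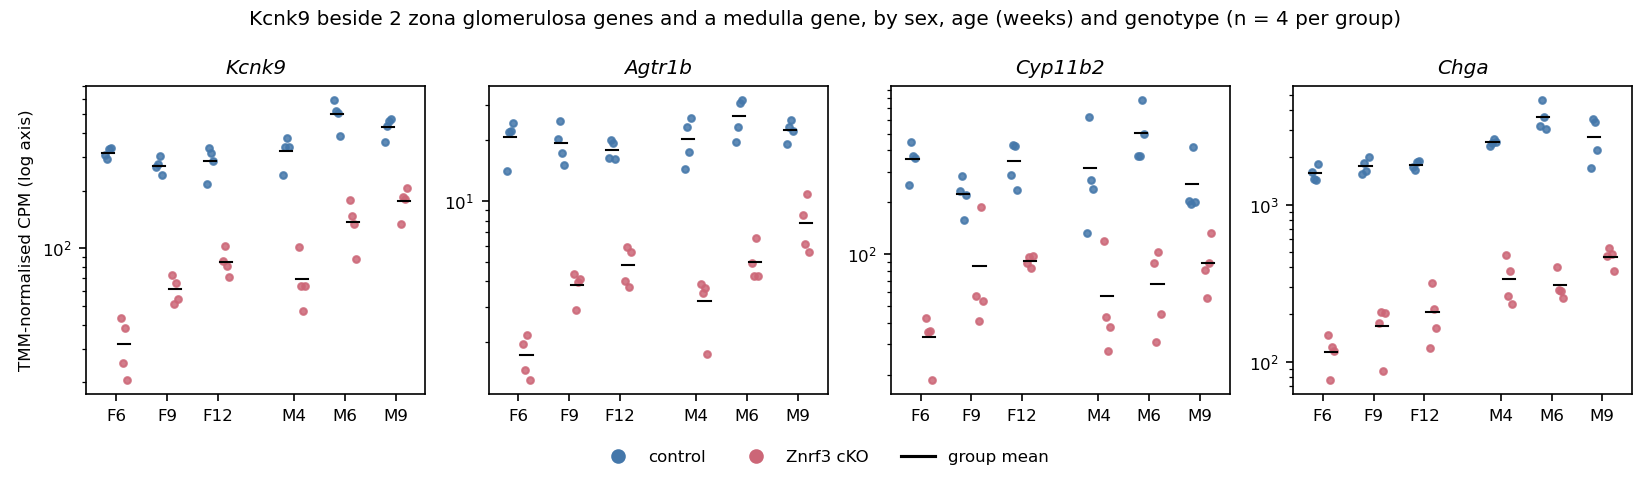
TMM-normalised CPM (log axis) of Kcnk9, the angiotensin receptor gene Agtr1b, Cyp11b2 and the medulla gene Chga by sex, age in weeks and genotype; points are animals (n = 4 per group) and bars group means. Group means of Kcnk9 in cKO females go from 31.9 to 85.1 CPM between 6 and 12 weeks and those of Agtr1b from 1.73 to 4.83 CPM.

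Markers of several cell types differed between cKO and control glands. In females at 6 weeks 6 of 8 zona glomerulosa markers fell. Their summed level was 682 to 731 CPM in cKO glands against 1400 to 1689 CPM in controls. At 12 weeks 6 of 8 fell, with sums of 882 to 1088 against 1374 to 1827 CPM. In males the sums were 505 to 934 against 1192 to 1839 CPM at 4 weeks, and 763 to 1204 against 1348 to 1677 CPM at 9 weeks. Medulla markers fell too, 12 of 12 in all 6 comparisons: 288 to 547 against 4286 to 5621 CPM in females at 6 weeks, and 971 to 1588 against 5693 to 10397 CPM in males at 9 weeks. Capsule and fibroblast markers fell in 6 of 7 in females at 6 weeks (253 to 512 against 652 to 838 CPM) and in 2 of 7 in males at 9 weeks (514 to 947 against 739 to 1056 CPM). Macrophage markers rose in 4, 5 and 3 of 7 in females at 6, 9 and 12 weeks (596 to 932 against 251 to 378 CPM at 12 weeks) and in 0, 6 and 5 of 7 in males at 4, 6 and 9 weeks (467 to 1301 against 237 to 261 CPM at 6 weeks). Schwann cell markers fell in 5 of 6 at each female age and in 6, 5 and 4 of 6 in males. The X-zone pair Akr1c18 and Pik3c2g fell in females at each age, with sums of 7.09 to 43.5 against 1498 to 3484 CPM at 6 weeks. Endothelial markers fell in 5, 5 and 2 of 6 in females, and 1 of 6 rose at each age. Their sums at 12 weeks were 813 to 849 against 799 to 848 CPM. Of these markers 2 of 6 fell in males at 4 weeks, and 3 of 6 rose in males at 6 weeks. Of 7 zona fasciculata markers 2, 3 and 1 fell in females and 0, 3 and 2 in males, and 0 rose. Liver markers reached 329 CPM in the highest cKO female at 12 weeks, against at most 0.197 CPM in controls. No glomerulosa or medulla marker was at 0 across a whole group. In whole glands, fewer cells of a type and less RNA per cell cannot be told apart, and the part of these markers in the 7 genes' changes was not tested.

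Kcnk3, the other leak channel gene, is known from several zones of the mouse cortex. Its cKO levels were within 1.56-fold of controls in all 6 comparisons. In females at 9 weeks controls held 2904, 3025, 3126 and 2791 CPM and cKO glands 2254, 2112, 2063 and 2203 CPM. All cKO animals were below all controls there (log2 change -0.46 ± 0.11 SE, edgeR adjusted p = 0.00274). At 6 weeks it was -0.31 ± 0.11 (adjusted p = 0.0372), with overlapping groups. Leaving out any of 5 of those 8 animals ended that call: cKO replicate 1 (adjusted p = 0.0939) or 2 (0.136), or control replicate 1 (0.0838), 2 (0.128) or 3 (0.0595). The call also ended with no low-count filter (-0.27, adjusted p = 0.0981) and in a fit of the 6-week groups alone (-0.30, 0.084). At 12 weeks it was -0.01 ± 0.11 (adjusted p = 0.943), with a cKO range of 2324 to 2726 CPM inside the control range of 1948 to 3061 CPM.

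In males at 9 weeks Kcnk3 was at 2418, 1515, 2355 and 2103 CPM in controls and at 2109, 1078, 1214 and 982 CPM in cKO glands. Replicate 1 of the cKO group lay among the controls and the other 3 below all of them. The log2 change of -0.64 ± 0.23 (SE, edgeR adjusted p = 0.0483) ended as a call in 21 of 24 fits that left out 1 animal of the male series. It held without cKO replicate 1 (-0.93, adjusted p = 0.00292), control replicate 2 (-0.73, 0.03) or 4-week cKO replicate 4 (-0.61, 0.0449). It was lost with relative log expression scaling (-0.62, adjusted p = 0.0533) and in a fit of the 9-week groups alone (-0.61, 0.107), and with library numbers up to 24 only the change was -0.30 (0.738). At 4 and 6 weeks it was -0.06 ± 0.23 and -0.48 ± 0.23 (adjusted p = 0.894 and 0.159), the latter called in a fit of the 6-week groups alone (-0.47, 0.0482). Among cKO males Kcnk3 changed over the 3 ages (edgeR adjusted p = 0.0208), with 9 minus 4 weeks at -0.78. This call did not hold without 4-week replicate 1 (adjusted p = 0.115) or 3 (0.112), or without 9-week replicate 2 (0.0543).

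Kcnj5 had the lowest level per kilobase of the 7 in all 6 control groups. In castrated glands Cacna1d was below it (median 0.390 against 0.541 CPM per kilobase, ranges apart), and in cKO females at 6 weeks the 2 genes overlapped (0.222 and 0.292). Group means of Kcnj5 were 1.12 to 1.97 CPM in females and 0.557 to 1.40 CPM in males, and edgeR called it in none of the 15 comparisons made. The largest difference was in males at 4 weeks, with 0.618, 0.315, 0.736 and 0.561 CPM in controls and 0.775, 1.99, 2.05 and 0.365 CPM in cKO glands. The cKO group held both the highest values and a value inside the control range. That log2 change was 1.20 ± 0.45 (SE, edgeR adjusted p = 0.0635; DESeq2 adjusted p = 0.0422), and 8 of 24 fits without 1 animal put it past the threshold (range of the change 0.95 to 1.53). In females at 9 weeks every cKO animal was above every control (1.61 to 1.89 against 1.40 to 1.48 CPM), with a log2 change of 0.26 ± 0.31 (adjusted p = 0.562).

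Cacna1d, the L-type calcium channel gene, also fell in every comparison, from a far lower level. Female controls held 17.3, 17, 17.9 and 22.6 CPM at 6 weeks and cKO glands 4.17, 2.68, 2.32 and 2.93 CPM. At 9 weeks the values were 19.3, 22.5, 21.2 and 18.5 CPM against 4.44, 4.83, 2.95 and 5.16 CPM. At 12 weeks they were 18.5, 19.8, 19.6 and 20.3 CPM against 3.51, 4.85, 4.59 and 4.89 CPM. No cKO female came near a control at any of the 3 ages. The log2 changes were -2.63 ± 0.17, -2.23 ± 0.17 and -2.13 ± 0.17 (SE, edgeR adjusted p = 1.76e-10, 2.56e-09 and 5.1e-09).

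Male controls held 25.5, 26.7, 34.6 and 34.2 CPM of Cacna1d at 4 weeks, 43.7, 39.6, 51.3 and 43.4 CPM at 6 weeks and 17.9, 36.3, 37.6 and 39.7 CPM at 9 weeks. The cKO males held 8.18, 4.39, 7.92 and 5.47 CPM, then 11, 10.2, 9.97 and 11.2 CPM, then 12.1, 14.1, 18.6 and 12.7 CPM. The groups overlapped only at 9 weeks, where control replicate 1 (17.9 CPM) was below cKO replicate 3 (18.6 CPM). Log2 changes were -2.20 ± 0.22, -2.07 ± 0.21 and -1.20 ± 0.20 (SE, edgeR adjusted p = 9.48e-08, 1.61e-07 and 0.000172). With a covariate for the number range they were -1.92, -1.70 and -1.18. At 9 weeks with numbers up to 24 only the change was -1.06 (adjusted p = 0.0915). Among cKO males Cacna1d changed over the 3 ages (edgeR adjusted p = 0.00112), with 9 minus 4 weeks at 1.13.

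Cacna1h, the T-type channel gene thought to drive the voltage oscillations of glomerulosa cells, fell in females by less than Cacna1d did in log2 terms. Controls held 376, 271, 347 and 388 CPM at 6 weeks and cKO glands 142, 231, 208 and 127 CPM, so that the groups did not overlap. The log2 change was -0.96 ± 0.17 at 6 weeks, -0.76 ± 0.17 at 9 weeks and -0.63 ± 0.17 at 12 weeks (SE, edgeR adjusted p = 0.000158, 0.00171 and 0.0103), with separate groups each time. In males it was -0.31 ± 0.14, -0.38 ± 0.14 and -0.12 ± 0.14 at 4, 6 and 9 weeks, the groups overlapped, and none passed the test (adjusted p = 0.136, 0.0645 and 0.593). The male minus female difference of these effects was 0.57 ± 0.23 at 6 weeks and 0.63 ± 0.25 at 9 weeks and was not called (adjusted p = 0.149 and 0.128). Among cKO males Cacna1h changed over the 3 ages (edgeR adjusted p = 0.0308), with 9 minus 4 weeks at 0.46. This call was lost in 5 of 24 fits. Those left out 4-week cKO replicate 1 (adjusted p = 0.0682) or 2 (0.0601), or 9-week cKO replicate 2 (0.0646), 3 (0.115) or 4 (0.101).

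Atp2b3, the calcium pump gene, was at 136, 120, 111 and 108 CPM in female controls at 6 weeks and at 70.7, 84.5, 87.5 and 44.2 CPM in cKO glands. At 9 weeks it was at 122, 114, 111 and 121 CPM against 88.4, 39.1, 64.3 and 65.8 CPM. Both ages separated the genotypes (log2 change -0.73 ± 0.20 and -0.86 ± 0.20 SE, edgeR adjusted p = 0.0072 and 0.0019). At 12 weeks it was -0.54 ± 0.20 with an adjusted p of 0.0508, and the groups overlapped. It passed the threshold in DESeq2 (0.0307) and without any of 6 single animals, over a range of adjusted p from 0.0229 to 0.162. In males the log2 change was -0.39 ± 0.15 at 4 weeks (adjusted p = 0.0804), -0.55 ± 0.15 at 6 weeks (0.0127) and -0.71 ± 0.15 at 9 weeks (0.00154). The 9-week values were 106, 82.2, 87.8 and 119 CPM in controls and 50.8, 52.6, 67.6 and 70.3 CPM in cKO glands, with no overlap. At 6 weeks the change was -0.20 (adjusted p = 0.6) with a covariate for the number range, a fit that cannot check it at that age. The 6-week call did not hold without cKO replicate 2 (adjusted p = 0.0532) or 4 (0.053) or control replicate 1 (0.0735).

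Clcn2, the chloride channel gene, went the other way in females. Controls held 269, 248, 207 and 206 CPM at 9 weeks against 286, 333, 268 and 288 CPM in cKO glands, and 238, 256, 218 and 184 CPM at 12 weeks against 337, 262, 244 and 316 CPM. One cKO animal lay within the control range at each of these ages. The log2 changes were 0.34 ± 0.12 and 0.37 ± 0.12 (SE, edgeR adjusted p = 0.0275 and 0.0225), and 0.09 ± 0.12 at 6 weeks (0.576). The 9-week call was lost without cKO replicate 2 (adjusted p = 0.0977) or control replicate 3 (0.0933) or 4 (0.0901). The 12-week call was lost without cKO replicate 1 (0.0943) or 4 (0.0724) or control replicate 3 (0.0529) or 4 (0.0909), and in a fit of the 12-week groups alone (0.062). Male group means were 99.2 to 141 CPM, and the log2 changes of -0.27, -0.34 and -0.02 at 4, 6 and 9 weeks were not called. At 6 weeks a fit of those groups alone called the change (-0.33, adjusted p = 0.0299). With a covariate for the number range it was -0.03 at 4 and at 6 weeks (0.957 and 0.964). That covariate cannot check the change at 6 weeks. Clcn2 at 6 weeks was 0.45 lower in its male than in its female effect (-0.45 ± 0.13, adjusted p = 0.0511; DESeq2 0.0231).

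**Figure D3:**
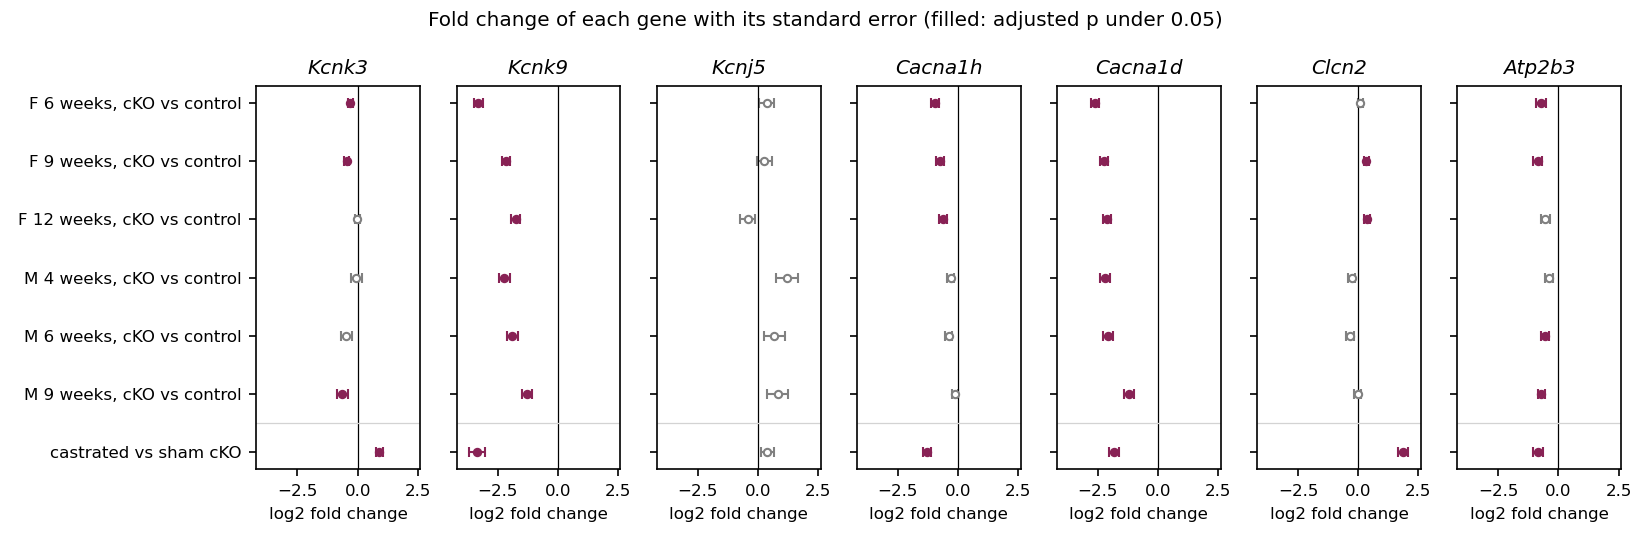
Log2 fold change of each gene (horizontal axis, points) with its approximate standard error (bars) in the 6 comparisons of cKO with control and in castrated against sham cKO glands; filled points passed edgeR's test. Kcnk9 and Cacna1d lie left of 0 in all 7 rows, and Kcnk3 and Clcn2 lie right of 0 in the castration row at 0.90 and 1.87.

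The sexes were measured in different tables, so sex and table cannot be told apart, and only genotype effects were compared. For every gene the male effect at 6 weeks also cannot be told apart from the library number range. At 6 weeks 1 of the 7 genes differed, where 7.63% of all genes did (5.08% with a higher and 2.55% with a lower effect in males). At 9 weeks 2 differed, beside 8.68% (5.39% higher and 3.29% lower). Kcnk9 fell less in males, by 1.41 ± 0.30 on the log2 scale at 6 weeks and 0.85 ± 0.19 at 9 weeks (SE, edgeR adjusted p = 0.0103 and 0.0146). Cacna1d fell less in males at 9 weeks, by 1.02 ± 0.31 (adjusted p = 0.0496). That call ended in 13 of 16 fits without 1 animal (adjusted p 0.0358 to 0.13). It held only without cKO male replicate 1 (0.0358) or control male replicate 1 (0.048) or 4 (0.0455). Relative log expression scaling (0.055) also ended it, as did a filter of CPM of at least 1 in 4 libraries (0.0539). At 6 weeks the Cacna1d difference was 0.54 ± 0.21 (adjusted p = 0.122), and 0.80 without female cKO replicate 1 (0.00966).

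Castration of cKO males moved 6 of the 7 genes, 4 down and 2 up, where 43.6% of all genes tested were called (23.8% lower and 19.8% higher). Castration removes testicular androgen, which acts on the mouse adrenal cortex. Kcnk9 was at 284, 482, 729 and 569 CPM in sham glands and at 79.8, 54.7, 30.5 and 37.8 CPM in castrated ones, a 10.2-fold lower mean in the fit (log2 change -3.35 ± 0.35 SE, edgeR adjusted p = 4.97e-05). Cacna1d was at 23, 12.7, 17.3 and 13.6 CPM against 5.20, 4.66, 3.82 and 5.18 CPM (-1.82 ± 0.21, adjusted p = 8.49e-05). Both genes had no overlap between the groups.

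Cacna1h was at 498, 438, 519 and 399 CPM in sham glands and 187, 250, 147 and 175 CPM in castrated ones (-1.29 ± 0.17 SE, edgeR adjusted p = 0.000177). Atp2b3 was at 67.8, 98.1, 139 and 86.9 CPM against 42.1, 63.2, 65.2 and 47.2 CPM (-0.85 ± 0.22, adjusted p = 0.01). All castrated values of these 2 genes were below all sham values, although the gap for Atp2b3 was only 65.2 to 67.8 CPM.

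Clcn2 rose 3.66-fold in castrated glands, from 111, 70.5, 71.9 and 81.4 CPM to 398, 325, 221 and 281 CPM (1.87 ± 0.20 SE, edgeR adjusted p = 5.71e-05). Kcnk3 rose 1.86-fold, from 1396, 1558, 1493 and 1746 CPM to 2534, 2812, 2850 and 3323 CPM (0.90 ± 0.15, adjusted p = 0.000719). Every castrated gland was above every sham gland for both. Kcnj5 was at 1.48 to 2.65 CPM in sham and 1.95 to 3.75 CPM in castrated glands, overlapping (0.39 ± 0.28, adjusted p = 0.283). The same 4 falls and 2 rises were called without sham replicate 1, with changes of -3.55 for Kcnk9, -1.62 for Cacna1d, -1.25 for Cacna1h, -0.99 for Atp2b3, 2.04 for Clcn2 and 0.85 for Kcnk3. With the reporter allele as a covariate Clcn2 was at 2.00 and Kcnk9 at -3.27. Library numbers were 10, 12, 29 and 33 for sham glands and consecutive for castrated ones. The part of library number in these changes was not tested.

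**Figure D4:**
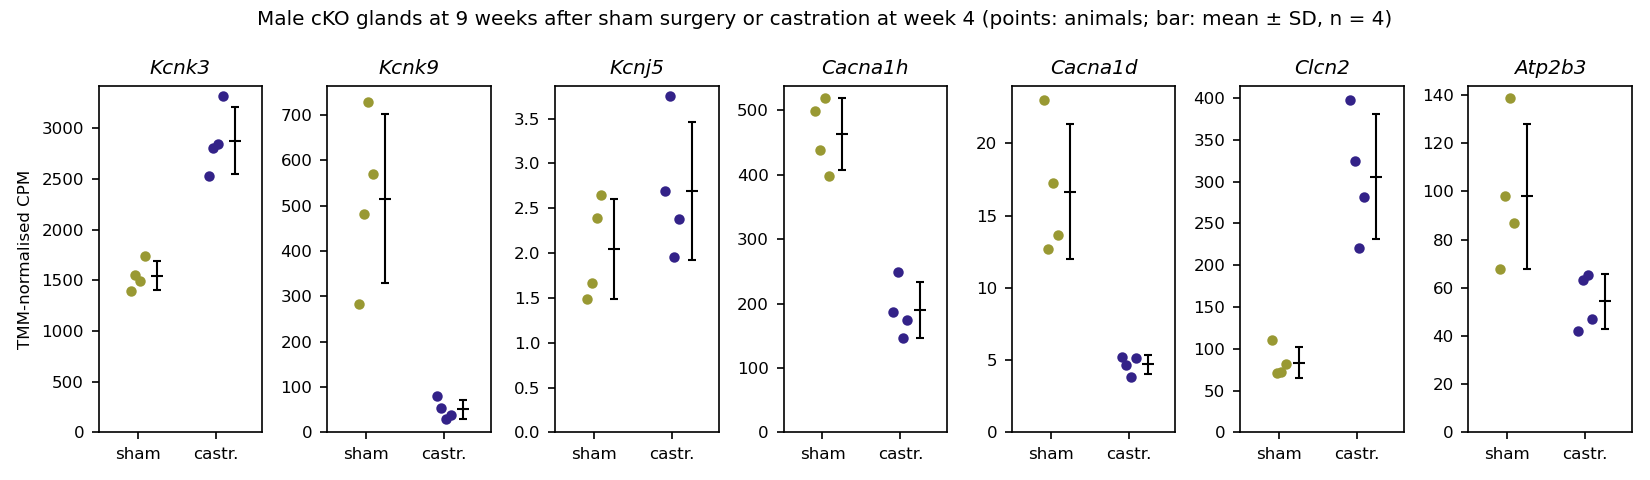
TMM-normalised CPM (linear axes from 0) of the 7 genes in male cKO glands at 9 weeks after sham surgery or castration at week 4; points are animals and the bars mean ± SD (n = 4). Kcnk9, Cacna1h, Cacna1d and Atp2b3 are lower in all castrated animals, Clcn2 (221 to 398 against 70.5 to 111 CPM) and Kcnk3 are higher, and Kcnj5 overlaps.

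Marker genes of several cell types moved in the same glands. In castrated glands 7 of 8 glomerulosa markers fell (summed level 734 to 900 against 1689 to 1941 CPM), as did 12 of 12 medulla markers (364 to 811 against 1067 to 2110 CPM). Schwann cell markers fell in 6 of 6 and endothelial markers in 5 of 6. Macrophage markers fell in 5 of 7 (292 to 469 against 773 to 1466 CPM) and capsule and fibroblast markers in 7 of 7 (264 to 346 against 738 to 895 CPM). Of 7 zona fasciculata markers 4 rose and 2 fell, with sums of 44369 to 51677 against 19243 to 29804 CPM. The X-zone pair summed to 13.3 to 113 CPM in castrated and at most 0.0781 CPM in sham glands. Whether these shifts account for the falls or rises of the 7 genes was not tested.

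The wider pathway was read from lists of genes that act with the 7. Of 33 receptor and calcium signalling genes, 12, 12 and 9 fell and 0 rose in females at 6, 9 and 12 weeks, where 19.1%, 20% and 16% of all genes tested fell. In males 8, 10 and 12 fell and 0, 1 and 2 rose at 4, 6 and 9 weeks, where 12.9%, 11.9% and 13.6% of all genes fell. The list's median change was -0.15 in females at each age and -0.17, -0.17 and -0.28 in males, beside -0.02 to 0.01 over all genes. Agtr1b, a receptor for angiotensin II, fell most clearly in females at 6 weeks (20.7 to 1.73 CPM, log2 change -3.58 ± 0.22 SE, edgeR adjusted p = 1.06e-10). Vsnl1, a calcium sensor of glomerulosa cells, fell from 66.9 to 5.57 CPM (-3.59 ± 0.22, adjusted p = 1.25e-10). Plcb4, a phospholipase C gene, fell from 26.6 to 13.5 CPM in the same females. Like Kcnk9, Agtr1b and Vsnl1 changed their genotype difference over the ages in females (edgeR adjusted p = 0.0299 and 0.0114). From 6 to 12 weeks the changes were 1.69 and 1.90. These were the list's only 2 called genes of 33 there. In castrated glands 8 of the 33 fell and 5 rose, shares close to or below the 23.8% and 19.8% of all genes tested. Among the falls were the receptor gene Agtr1a (293 to 147 CPM, -1.0 ± 0.11, adjusted p = 7.46e-05) and the calcium release channel gene Itpr3 (27.5 to 14.1 CPM).

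Of 9 genes of steroid synthesis up to aldosterone, 3 fell and 1 rose in females at 6 and at 9 weeks, with 1 of each at 12 weeks. Over all genes tested 19.1%, 20% and 16% fell and 14.2%, 14.6% and 9.11% rose, so that 1 gene of 9 is near the background. The falls at 6 weeks were Cyp11b2 (358 to 33.2 CPM), Hsd3b6 (46.6 to 20.1 CPM), the glomerulosa form of 3-beta-hydroxysteroid dehydrogenase, and the cholesterol carrier Star (12477 to 7572 CPM). Hsd3b1, a second form of that dehydrogenase, rose from 14990 to 19038 CPM (log2 change 0.34 ± 0.11 SE, edgeR adjusted p = 0.0148). In males 1, 3 and 2 fell and 2, 0 and 0 rose at 4, 6 and 9 weeks (12.9%, 11.9% and 13.6% of all genes fell and 6.29%, 8.19% and 10.4% rose). After castration 2 fell and 3 rose (23.8% and 19.8% of all genes). Hsd3b6 went from 341 to 43.9 CPM (-2.96 ± 0.28, adjusted p = 2.49e-05), while Cyp21a1, the steroid hydroxylase gene, went from 7320 to 22876 CPM (1.64 ± 0.20, adjusted p = 0.000137) and Star from 6136 to 11474 CPM.

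Among paralogs of the 7 genes, 31 of 43 had enough counts in females, of which 13, 13 and 11 fell and 2, 3 and 1 rose at 6, 9 and 12 weeks. Their median change was -0.47, -0.36 and -0.47. Of all genes tested, 19.1%, 20% and 16% fell and 14.2%, 14.6% and 9.11% rose at these ages. The leak channel gene Kcnk2 fell in females at 6 weeks from 27 to 2.63 CPM (log2 change -3.36 ± 0.21 SE, edgeR adjusted p = 1.46e-10) and the pump gene Atp2b4 from 41.5 to 17.3 CPM. Cacna1b, an N-type calcium channel gene used in neurons and chromaffin cells, fell from 4.77 to 0.471 CPM, and Atp2b2 from 4.29 to 0.733 CPM. In males 28 paralogs were tested, with 6, 8 and 5 lower and 1, 2 and 4 higher at 4, 6 and 9 weeks. There 12.9%, 11.9% and 13.6% of all genes tested fell and 6.29%, 8.19% and 10.4% rose. In castrated glands 11 of 27 fell and 2 rose, beside 23.8% and 19.8% of all genes tested. Kcnk1, another gene of the tandem-pore family, went from 57.2 to 5.67 CPM (-3.34 ± 0.22, adjusted p = 2.86e-06), and Kcnj11, an ATP-sensitive potassium channel gene, from 2.87 to 0.114 CPM (-4.64 ± 0.58).

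Other transporters and channel subunits were lower in 17 of 26 tested in females at 6 weeks and in 17 at 9 weeks, with 2 and 1 higher. At 12 weeks 11 were lower and 1 higher. Of all genes tested, 19.1%, 20% and 16% fell and 14.2%, 14.6% and 9.11% rose at 6, 9 and 12 weeks. Atp1b1, a subunit of the sodium pump, fell from 51.8 to 7.79 CPM at 6 weeks (log2 change -2.74 ± 0.15 SE, edgeR adjusted p = 5.37e-11). Slc12a2, a sodium-potassium-chloride cotransporter gene, fell from 136 to 51.6 CPM, and the sodium leak channel gene Nalcn from 9.07 to 1.79 CPM. In males 9, 7 and 10 of 25 fell and 0, 4 and 1 rose. There 12.9%, 11.9% and 13.6% of all genes tested fell and 6.29%, 8.19% and 10.4% rose. After castration 14 of 25 fell, where 23.8% of all genes tested fell. The potassium channel subunit gene Kcnmb4 went from 7.89 to 1.01 CPM (-2.96 ± 0.20, adjusted p = 3.65e-06) and the calcium channel subunit gene Cacnb4 from 5.47 to 0.281 CPM (-4.27 ± 0.29).

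The patterns of the 7 genes were set against each other over the 12 group means of the female and male tables, each centred on its own mean. These points share tables, libraries and the marker shifts above, so the correlations are descriptions. Kcnk9, Cacna1d, Cacna1h and Atp2b3 had Pearson correlations of 0.85 to 0.98 with one another. Kcnk3 had 0.29 to 0.64 with these 4, and Clcn2 -0.22 to 0.03. Among 12779 genes with enough counts, those most like Kcnk9 over the 12 means were Hpcal4 (0.997), Smpx (0.994) and Ism1 (0.994). For Cacna1d they were Peg3, Ppfia2 and Tnik (0.995 each). Rgl3 (0.975) led for Cacna1h, Dpp8 (0.983) for Kcnk3, Lrfn1 (0.986) for Atp2b3 and Tbc1d24 (0.946) for Clcn2. Kcnj5 was below the level needed.

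The RefSeq promoter table for GRCm38.p6 held entries for 3 of the 7 genes. Those of Clcn2 and Cacna1d, which moved in opposite directions after castration, are shown as the 250 bases before the annotated start, 5′ to 3′ on the gene's strand. Capitals mark matches to motifs searched on both strands: AAGGTCA (SF1), ATCAAAG (TCF/LEF core), AGAACA (core of androgen and glucocorticoid receptor elements) and TGACGTCA (CRE). The Clcn2 stretch lies at chr16:20716637-20716886 and the Cacna1d stretches at chr14:30491157-30491406 and chr14:30353487-30353736, all on the - strand. Each lies inside the GENCODE span of its gene given above, so these RefSeq starts differ from the GENCODE gene starts.
Clcn2: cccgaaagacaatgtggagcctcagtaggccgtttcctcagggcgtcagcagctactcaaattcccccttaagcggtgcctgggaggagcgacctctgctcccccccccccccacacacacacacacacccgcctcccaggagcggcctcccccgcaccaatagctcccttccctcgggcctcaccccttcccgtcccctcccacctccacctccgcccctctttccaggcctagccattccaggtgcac
Cacna1d, upstream start: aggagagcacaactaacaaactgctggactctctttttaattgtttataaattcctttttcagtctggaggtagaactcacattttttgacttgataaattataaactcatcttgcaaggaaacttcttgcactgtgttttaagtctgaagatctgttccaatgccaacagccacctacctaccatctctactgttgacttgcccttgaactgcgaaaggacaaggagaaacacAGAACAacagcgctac
Cacna1d, downstream start: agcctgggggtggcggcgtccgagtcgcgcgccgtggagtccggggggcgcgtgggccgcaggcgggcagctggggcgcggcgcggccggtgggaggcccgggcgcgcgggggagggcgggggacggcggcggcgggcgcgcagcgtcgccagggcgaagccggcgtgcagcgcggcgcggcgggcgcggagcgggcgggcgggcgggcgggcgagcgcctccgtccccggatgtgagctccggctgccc
The only match was AGAACA at position -16 of the upstream Cacna1d start. Of 32851 promoters of this length, 16.1% hold AGAACA, 4.1% AAGGTCA, 3.2% ATCAAAG and 1.5% TGACGTCA on either strand. GC content was 66.0% for Clcn2, 39.6% for the upstream and 86.4% for the downstream Cacna1d start, against a median of 52.4% over all promoters. Gene-level counts do not show which Cacna1d start was used.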

How the data were processed

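Whole adrenal glands of 56 mice were measured by bulk RNA sequencing. The authors deposited raw gene-level counts in 3 tables, and the submitters' processing notes name featureCounts, STAR 2.7.6a, RSEM 1.6.3, cutadapt 1.16 and DESeq2 1.30.1 with GRCm38 but no role for each. Symbols came from GENCODE M21, which held 99.53% of identifiers in the female and male tables and 94.08% in the surgery table. The count analysis used edgeR 4.0.16 (R 4.3.3, limma 3.58.1): filterByExpr (minimum count 10), TMM scaling, all groups of a table in 1 fit, quasi-likelihood test, Benjamini-Hochberg adjustment over all genes tested (18645 female, 17086 male, 16961 surgery). Differences between sexes used joint fits (17681 and 17824 genes). Alternatives were DESeq2 1.42.0, other scaling and filters, fewer groups, a replicate block, library number range, reporter allele and leaving out each animal. Samples are separate animals per the series text. Replicate numbers did not pair samples. The script was tested on simulated data. The 7 genes and all lists were chosen with earlier results of these data known. The text names the 7 genes, at most 4 called genes per list and comparison with the smallest p, and the 1 to 3 most alike genes. Nnt had more than 1 identifier and was left out.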

Additional observations from a re-analysis of the deposited data

Results flagged for a closer look

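In a screen of 98 groups of 4 for a single distant sample, which chance alone flags in about 1 of 20 groups, 2 were flagged, both for Cacna1d. Female control replicate 4 at 6 weeks (22.6 CPM) lay above the other 3 (17 to 17.9 CPM), and male control replicate 1 at 9 weeks (17.9 CPM) lay below the other 3 (36.3 to 39.7 CPM).

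The genotype effect on Kcnk9 differed over the 3 ages in females (edgeR adjusted p = 0.0211), with 1.55 on the log2 scale from 6 to 12 weeks. That call was lost in 3 of 24 fits without 1 animal. The Kcnk9 effect also differed between the sexes, by 1.41 at 6 weeks (adjusted p = 0.0103) and 0.85 at 9 weeks (0.0146). For Cacna1d the sexes differed by 1.02 at 9 weeks (0.0496). Without male control replicate 1, the distant sample above, this last difference was 0.82 (0.048). Its call ended in 13 of 16 fits without 1 animal (adjusted p up to 0.13). It also ended with relative log expression scaling (0.055) and with a filter of CPM of at least 1 in 4 libraries (0.0539). Sex and table cannot be told apart in these differences. At 6 weeks the male genotype effect also cannot be told apart from the library number range.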

How the results depend on the processing

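The number of the 7 genes called kept within 1.5 times of its value in most alternatives. It moved from 1 to 2 for cKO females over weeks (DESeq2), from 3 to 6 for males at 6 weeks (fit of those groups alone), from 4 to 1 for males at 9 weeks (library numbers up to 24 only), from 0 to 1 for the male genotype effect over weeks (DESeq2), from 1 to 2 for the sex difference at 6 weeks (DESeq2; no low-count filter) and from 2 to 1 at 9 weeks (relative log expression scaling; CPM of at least 1 in 4 libraries). Fits of the groups of 1 age alone kept the number of all genes called within 1.5 times of its value. For males at 6 weeks that value was 3435, or 20.1% of all genes tested. The cause of the moves among the 7 genes was not tested. The fit with numbers up to 24 also has fewer animals, so range and sample size cannot be told apart there. Leaving out 1 animal gave 1 to 2 called for cKO females over weeks, 0 to 1 for the female genotype effect over weeks, 2 to 4 for cKO males over weeks (2 without 4-week replicate 1 or 9-week replicate 2), 1 to 2 for the sex difference at 6 weeks and 1 to 2 at 9 weeks.

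Directions turned only for changes that were not called, the largest of them -0.39 on the log2 scale (Atp2b3 in males at 4 weeks). Kcnk3 in females at 12 weeks was 0.01 with no low-count filter, and -0.13 to 0.08 without single animals. In males at 4 weeks, numbers up to 24 gave 0.02 for Clcn2 and 0.05 for Atp2b3, beside -0.27 and -0.39 with all animals. In males at 9 weeks, Clcn2 was 0.01 in a fit of those groups alone, 0.01 with the number covariate and 0.27 with numbers up to 24. Without single animals, Kcnk3 in males at 4 weeks was -0.18 to 0.13. In males at 9 weeks such fits gave -0.13 to 0.12 for Clcn2 and -0.22 to 0.04 for Cacna1h. Kcnj5 in females at 6 weeks, at 0.36 with all animals, was -0.06 to 0.64 in them. The sex difference of Atp2b3 was -0.01 to 0.29 at 6 and -0.10 to 0.33 at 9 weeks.

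Over all genes, DESeq2 raised the calls from 7 to 108 (female controls over weeks), 1252 to 1968 (cKO females over weeks), 26 to 314 (female genotype effect over weeks), 343 to 801 (male controls over weeks), 283 to 1211 (male genotype effect over weeks) and 1547 to 2489 (sex difference at 9 weeks). Without the filter, female controls over weeks gave 19 and the female genotype effect over weeks 50. The number covariate lowered 3275 to 1701 (males at 4 weeks), 3435 to 1613 (6 weeks) and 283 to 6. Numbers up to 24 left 678 at 4 weeks, with 1 control assumed to vary like the other groups, and 624 of 4110 at 9 weeks.

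Animals with the same replicate number did not deviate together (correlations from -0.25 to 0.11, best match with the own number in 4 of 24 pairs). A replicate block changed the calls to 0 (female controls over weeks), 185 (male genotype effect over weeks) and 659 of 1349 (sex difference at 6 weeks). Among the 7 genes it ended the call of Cacna1h in cKO males over weeks (adjusted p = 0.0506) and called Atp2b3 in females at 12 weeks (0.0347). Kcnj5, with the fewest counts of the 7, is the most limited by depth.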
